A study of Mus musculus with 4 samples.

Results

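The numbered Zfp genes are mouse genes named Zfp followed only by a number, the names given to zinc finger proteins. Their symbols were read from the annotation of an Affymetrix array, and a gene was included where its brightest probe set, the group of probes that reports a transcript, had a mean signal of 200 or more over all 4 arrays. Of 305 such genes on the array, 263 met that minimum, 40 lay below it, and Zfp57 and Zfp503 were left out by name. The genes were thus chosen by their mean signal over both genotypes, and levels among them are given as a description only. Just inside the minimum were Zfp551 and Zfp820, with mean signals of 208.1 and 219.7, and just outside were Zfp418 and Zfp473, with 191.7 and 188.2. The mean of the double knockout arrays alone would have left out Zfp112, Zfp551, Zfp558, Zfp820 and Zfp940, and that of the control arrays alone would have left out Zfp52.

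RNA came from whole brains of mouse embryos at day 14.5 of development (E14.5) on a mixed 129SvJ/C57Bl/6J background. The 2 double knockout arrays came from embryos with Brn4::Cre, Sox4 flox/flox and Sox11 flox/flox, and the 2 control arrays from embryos with the same floxed Sox4 and Sox11 alleles and no Cre in the label. Brn4::Cre is a Cre recombinase driver named for Brn4 (Pou3f4), a POU transcription factor of the developing nervous system, so cells in which the driver is not active keep both genes. The arrays of a genotype are labelled as biological replicates, with nothing said of pooling or of the number of embryos, so the p-values reflect array-to-array spread, which may be technical. The series asks which genes depend on Sox4 and Sox11 in the developing nervous system. Its title names the spinal cord, while the labels name whole brain.

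Most numbered Zfp genes encode proteins with rows of C2H2 zinc fingers, small folds that hold a zinc ion and read DNA bases. Many also carry a KRAB domain, which recruits the scaffold Trim28 and, through it, the histone methyltransferase Setdb1, HP1 proteins and DNA methyltransferases, and so silences retrotransposons and imprinted genes. The family expanded by local duplication, so many members lie in rows along a chromosome and resemble each other in sequence. Sox4 and Sox11 are SoxC transcription factors of newly formed neurons, and SOX proteins bind DNA at short A- and T-rich core letters such as ACAAAG and ACAATG.

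Promoters of 6 members are shown here because their letters are referred to below. They were picked as the largest falls with a match to SOX core letters in the bases shown, the largest fall without a match and the largest rise. How many of them hold a match is therefore set by this choice. Each is the 250 bases before the gene's start, 5′ to 3′ on the gene's own strand, from RefSeq on build GRCm38.p6. Capitals mark the SOX core letters ACAAAG or ACAATG, or the same letters read from the other strand (CTTTGT). The genes Zfp697 (chr3:98382231-98382480, + strand), Zfp618 (chr4:62965317-62965566, + strand), Zfp184 (chr13:21944844-21945093, + strand) and Zfp868 (chr8:69625549-69625798, - strand) were among the 12 with the largest falls and hold a match. The gene with the largest fitted fall, Zfp558 (chr9:18473646-18473895, - strand), and the one with the largest rise, Zfp365 (chr10:67912663-67912912, - strand), hold none.
Zfp697: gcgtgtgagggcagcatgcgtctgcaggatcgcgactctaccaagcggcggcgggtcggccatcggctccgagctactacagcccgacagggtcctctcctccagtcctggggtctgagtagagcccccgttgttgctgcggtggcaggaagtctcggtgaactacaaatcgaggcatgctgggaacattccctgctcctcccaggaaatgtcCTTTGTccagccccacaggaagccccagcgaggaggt
Zfp618: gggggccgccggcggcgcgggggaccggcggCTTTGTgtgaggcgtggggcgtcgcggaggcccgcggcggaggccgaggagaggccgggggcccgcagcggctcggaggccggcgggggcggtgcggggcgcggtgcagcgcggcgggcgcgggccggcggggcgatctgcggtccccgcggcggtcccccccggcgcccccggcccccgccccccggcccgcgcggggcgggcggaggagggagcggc
Zfp184: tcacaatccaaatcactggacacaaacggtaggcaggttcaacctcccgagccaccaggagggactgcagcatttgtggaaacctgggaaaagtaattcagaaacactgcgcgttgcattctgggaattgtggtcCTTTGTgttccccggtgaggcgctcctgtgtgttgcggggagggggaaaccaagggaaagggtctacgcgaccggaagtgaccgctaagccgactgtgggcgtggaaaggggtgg
Zfp868: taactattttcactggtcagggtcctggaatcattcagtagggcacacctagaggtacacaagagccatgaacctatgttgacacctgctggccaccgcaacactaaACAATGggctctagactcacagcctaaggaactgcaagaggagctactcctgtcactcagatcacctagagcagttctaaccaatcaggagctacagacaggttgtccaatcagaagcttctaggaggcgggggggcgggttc
Zfp558: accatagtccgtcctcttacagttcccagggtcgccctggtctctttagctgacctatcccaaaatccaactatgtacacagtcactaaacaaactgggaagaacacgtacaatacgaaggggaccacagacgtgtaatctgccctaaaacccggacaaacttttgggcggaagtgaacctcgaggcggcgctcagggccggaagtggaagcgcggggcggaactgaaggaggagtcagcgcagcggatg
Zfp365: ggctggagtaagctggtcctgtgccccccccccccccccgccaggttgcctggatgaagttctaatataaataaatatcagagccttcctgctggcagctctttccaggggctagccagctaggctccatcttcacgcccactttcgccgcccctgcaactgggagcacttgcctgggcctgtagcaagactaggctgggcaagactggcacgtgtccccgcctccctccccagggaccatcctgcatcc
Counted from the start, the first capital letter lies at position -37 in Zfp697, -219 in Zfp618, -115 in Zfp184 and -143 in Zfp868. The base composition differs widely between them, with 88.8% G and C in Zfp618 and 51.2% in Zfp868.

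The arrays and their labels were checked first. Log2 signals over all probe sets tested correlated at r = 0.988 between the double knockout arrays, 0.985 between the control arrays and 0.96 to 0.963 between arrays of different groups. All 6 tested probe sets of Sox11 fell in the double knockout, with log2 changes of -3.18 to -1.19. Of 6 tested probe sets of Sox4, 4 fell and 1 rose (log2 changes from -2.69 to 1.83), and the brightest had a log2 change of 0.09 with an adjusted p of 0.242 in limma. Whether a given probe set lies inside the floxed stretch was not analysed here, and one outside it checks nothing. Summed signals of 11 microglial markers were 27207 to 29092 in double knockout brains, against 7863 to 8737 in control brains, and all 11 rose. Of 12 neuronal markers, 8 fell and 2 rose, with sums of 121040 to 124782 in double knockout brains, against 154476 to 161793 in control brains. Of 9 markers of cycling cells, 8 rose, and their sums were 37292 to 38734 in double knockout brains, against 23774 to 26181 in control brains. Of 9 endothelial markers, 5 rose and 0 fell, with sums of 10435 to 10939 in double knockout brains, against 7542 to 8282 in control brains. Of 8 mesenchymal markers, 5 rose and 0 fell, with sums of 38104 to 39831 in double knockout brains, against 29075 to 29749 in control brains. Progenitor markers were mixed, since of 10 measured 3 rose and 1 fell, with a median log2 change of 0.06. Their sums were 81627 to 83740 in double knockout brains, against 75705 to 80594 in control brains. Of 3 blood markers measured, 0 rose and 0 fell. In whole brain RNA, fewer cells of a type and less RNA per cell cannot be told apart. The part these shifts have in the results on the Zfp genes was not tested.

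Numbered Zfp genes were mostly lower in double knockout brains. Of the 263 genes, 70 fell (26.6%), 6 rose (2.28%) and 187 did not pass the test. The background over all 12489 genes tested was 11.0% that fell and 16.3% that rose. A gene is said to have fallen or risen where its adjusted p was under 0.05 in limma, fitted across all probe sets on log2(signal + 16). The log2 change, double knockout minus control, was below 0 for 216 of the 263 genes (82.1%), against 43.2% of all genes tested. Its median was -0.28, a 1.22-fold lower signal, with an interquartile range of -0.47 to -0.05, while the median over all genes tested was 0.06. Most single changes were small. By at least 1.5-fold, 37 genes fell (14.1%) and 4 rose (1.52%), against 5.32% and 7.58% of all genes tested. By at least 2-fold, 4 fell (1.52%) and 1 rose (0.38%), against 1.41% and 2.25% of all genes tested. Falls of that size were thus about as frequent as among all genes. The counts of genes that fell or rose in the test were lower with any array left out, among the members and among all genes. The median log2 change of the members was -0.23 without double knockout 1 and -0.28 to -0.25 without each of the other arrays. Over all genes tested it was 0.05 to 0.06 in these fits. Without the variance trend, 32 fell and 2 rose, with 5.24% and 7.69% of all genes, and without the signal filter 43 fell and 4 rose, with 7.83% and 11.2%.

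**Figure D1:**
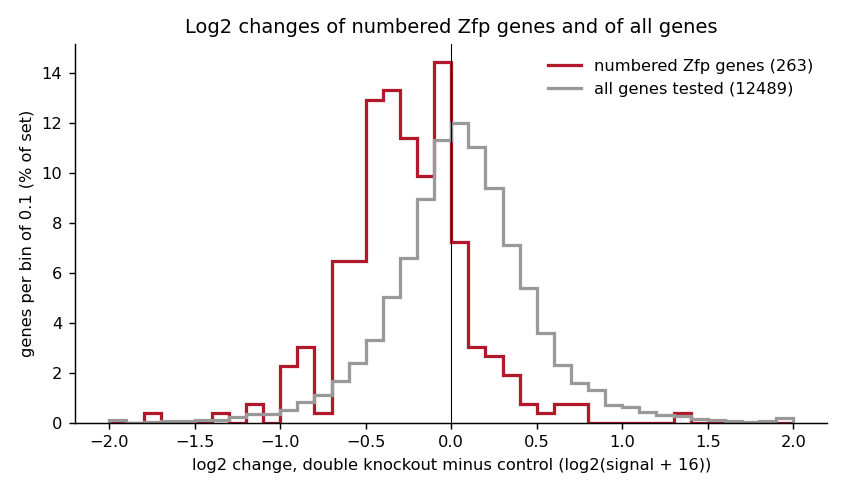
The x axis gives the log2 change, double knockout minus control, and the y axis the percent of genes in each bin of 0.1, for the 263 numbered Zfp genes (red) and all 12489 genes tested (grey). Changes beyond 2 in size are drawn in the outermost bins. The red outline lies to the left of the grey one, with medians of -0.28 and 0.06.

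The same shift was seen on every array. The median signal of the 263 genes was 858.1 and 897.9 on the double knockout arrays, against 998.9 and 1013 on the control arrays. Set against each control array in turn, double knockout 1 had lower values for 213 and 210 of the genes, and double knockout 2 for 197 and 199. The median log2 difference was -0.28, -0.28, -0.26 and -0.23 over these 4 pairs of arrays. Between the arrays of 1 genotype it was 0.04 for the double knockouts and 0.01 for the controls. Both double knockout arrays lay below both control arrays for 161 genes (61.2%), where the background was 27.1% of all genes. Both lay above for 25 genes (9.51%), where the background was 39.8%, and the groups overlapped for 77.

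Precision differed with brightness, since the median SE of the log2 change was 0.15 over the Zfp genes and ranged from 0.07 to 0.37. Among 62 members with a mean signal of 200 to 500, 14.5% fell and 0 rose in limma (2 were higher at an unadjusted p under 0.05), with a median log2 change of -0.31, while 4.95% of all genes of that signal fell. Among 75 members at 500 to 1000, 21.3% fell, against 8.76% of all genes. Among 69 at 1000 to 2000, 33.3% fell, against 11.8%, and among 57 at 2000 or more, 38.6% fell, against 16.1%. The share that fell was thus larger at brighter signals for the Zfp genes and for all genes, while the median change of the Zfp genes lay between -0.31 and -0.25 in all 4 ranges. Of the 40 genes below the minimum, 9 were bright enough for the test and none of them passed in limma, while 2 were lower at an unadjusted p under 0.05 and 0 higher. Both double knockout arrays lay below both controls for 14 of the 40 and above them for 3, beside 27.1% and 39.8% of all genes tested. Most of the 40 were too dim to be among the genes tested.

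**Figure D2:**
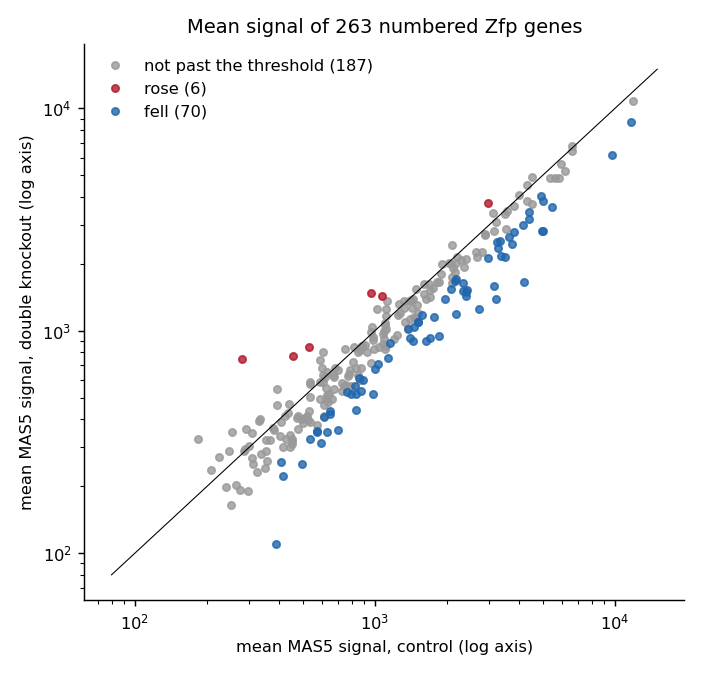
Each point is 1 of the 263 numbered Zfp genes, with its mean MAS5 signal over 2 double knockout arrays on the y axis and over 2 control arrays on the x axis, both on log scales. The line marks equal means. Most points lie below it, including the 70 genes that fell (blue), and the 6 that rose (red) lie above it.

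The largest fitted fall was that of Zfp558, a C2H2 zinc finger gene with 1 tested probe set. Its signal was 80.8 and 139.8 in double knockout brains, against 417.3 and 360.0 in control brains. The groups did not overlap, but both double knockout signals lay below the filter level of 154.6, so the gene was included and tested only through its control signals. The size of its log2 change, -1.72 ± 0.29 (SE, n = 2 each), is therefore uncertain, and its rank as the largest is not firm. A dimmer probe set, left out by the filter, had 48.6 and 69.9 in double knockout brains, against 281.8 and 224.9 in control brains.

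Zfp811 had signals of 1666 and 1656 in double knockout brains, against 4245 and 4084 in control brains. Its replicates differed little beside the gap between genotypes, and the log2 change was -1.32 ± 0.10 (limma adjusted p = 3.48e-05). A dimmer probe set of Zfp811 fell as well, with a log2 change of -1.22. Zfp647 had 1364 and 1426 in double knockout brains, against 3162 and 3213 in control brains (log2 change -1.18 ± 0.10, limma adjusted p = 7.31e-05). Zfp697 had 1275 and 1223 in double knockout brains, against 2636 and 2772 in control brains (log2 change -1.10 ± 0.11, limma adjusted p = 0.000123). These 4 were the genes that fell by at least 2-fold, 1.52% of the members beside 1.41% of all genes tested. None of them overlapped between genotypes, as was so for every member that fell or rose.

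Zfp618, whose protein binds the chromatin reader Uhrf2, had signals of 1513 and 1666 in double knockout brains, against 2943 and 3321 in control brains. All 4 of its tested probe sets had lower values in the double knockout, and its log2 change was -0.97 ± 0.11 (limma adjusted p = 0.000294). Zfp90, which encodes a KRAB zinc finger protein, had 964.7 and 927.7 in double knockout brains, against 1783 and 1907 in control brains (log2 change -0.95 ± 0.12, limma adjusted p = 0.000456). Zfp658 had 357.4 and 357.5 in double knockout brains, against 659.6 and 745.6 in control brains (log2 change -0.94). Both genes were about as low on either double knockout array, with no overlap with the controls.

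The remaining 5 of the 12 largest falls had log2 changes of -0.95 (Zfp184), -0.94 (Zfp708), -0.90 (Zfp141), -0.90 (Zfp882) and -0.87 (Zfp868). Zfp708, which encodes a KRAB protein that silences a retrotransposon family in mouse, had signals of 241.2 and 384.7 in double knockout brains, against 616.0 and 581.9 in control brains. Its double knockout arrays differed from each other, and the lower was double knockout 1. Without that array, Zfp708 had an adjusted p of 0.0899 in limma, Zfp141 of 0.0554 and Zfp184 of 0.0688, so that these 3 calls were lost. Zfp882 had a second tested probe set with a log2 change of 0.06, and it did not pass when its probe sets were averaged.

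The 6 genes that rose had smaller changes, apart from Zfp365. Zfp365, also known as DBZ, encodes a protein that binds Disc1 and has roles in neurons and oligodendrocytes of mouse. Its signal was 815.2 and 682.0 in double knockout brains, against 264.4 and 297.0 in control brains. Both double knockout arrays were more than 2 times as high as either control, and the log2 change was 1.36 ± 0.18 (limma adjusted p = 0.000577). It was the single rise that passed with each array left out in turn.

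Zfp783 had 843.9 and 698.3 in double knockout brains, against 526.5 and 389.9 in control brains (log2 change 0.74 ± 0.18). Zfp651 had 921.8 and 762.1 in double knockout brains, against 499.7 and 565.2 in control brains (log2 change 0.64 ± 0.16). Zfp367 had 1356 and 1610 in double knockout brains, against 998.9 and 933.5 in control brains (log2 change 0.61 ± 0.13). The double knockout arrays of these 3 differed from each other (SD 103.0, 112.9 and 179.3), and the groups did not overlap. Zfp667 (0.42) and Zfp771 (0.34) rose the least, and the Zfp771 probe set is of a type whose probes can match related transcripts. The calls of Zfp651, Zfp667, Zfp771 and Zfp783 were lost without double knockout 1 (adjusted p = 0.135, 0.0968, 0.0742 and 0.15 in limma). Those of Zfp367, Zfp667, Zfp771 and Zfp783 were lost without double knockout 2 (0.0818, 0.195, 0.0718 and 0.0587). Without control 1, Zfp667 and Zfp771 did not pass (0.204 and 0.0756), and without control 2, Zfp771 and Zfp783 did not (0.0746 and 0.0576).

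**Figure D3:**
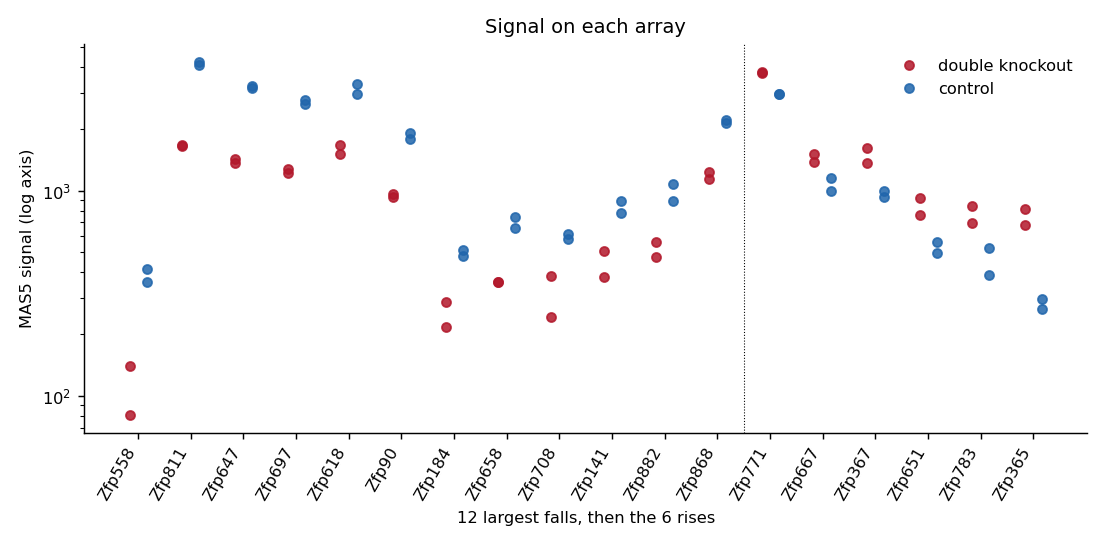
The y axis gives the MAS5 signal on a log scale, and the x axis lists the 12 members with the largest falls and then the 6 that rose. Each point is 1 array, with the double knockout (red) left of the control (blue). In all 18 genes both red points lie on 1 side of both blue points. All 70 genes that fell and all 6 that rose had groups that did not overlap, so this separation is set by the choice of genes.

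The genes were then described by role. Of 16 measured members with roles in the nervous system, 6 fell (37.5%), 1 rose (Zfp365, 6.25%) and 9 did not pass, with a median log2 change of -0.16. These shares and the counts of the other role lists stand beside 26.6% that fell and 2.28% that rose among all members, and 11.0% and 16.3% among all genes. Zfp521, which promotes neural differentiation of mouse embryonic stem cells, had signals of 2762 and 2861 in double knockout brains, against 5097 and 4876 in control brains. Zfp711, the mouse relative of a human gene of X-linked intellectual disability, had 2783 and 2836 in double knockout brains, against 5016 and 4987 in control brains. Both were clearly separated between genotypes, with log2 changes of -0.82 ± 0.09 and -0.83 ± 0.09 (limma adjusted p = 0.000217 and 0.000191). The second Zfp521 probe set also fell, by 0.77 on the log2 scale.

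Zfp423, a partner of Ebf and Smad factors that is required for the cerebellum in mouse, had 1743 and 1285 in double knockout brains, against 2227 and 2438 in control brains. Its double knockout arrays differed, and its log2 change of -0.63 ± 0.14 (limma adjusted p = 0.0112) was -0.42 and did not pass without double knockout 2 (0.0748). Zfp292, whose human relative is mutated in neurodevelopmental disorders, had 2851 and 3116 in double knockout brains, against 4011 and 4309 in control brains (log2 change -0.48 ± 0.10). Zfp462, whose human relative is also mutated in a developmental syndrome, was among the 5 brightest members, with 8782 and 8644 in double knockout brains, against 11374 and 11945 in control brains (-0.42 ± 0.07). Of its 2 other tested probe sets both had lower values (-0.62 and -0.60), and 3 of the 4 others of Zfp292 fell. Zfp532 (-0.39 ± 0.10) fell, but not without control 1 or double knockout 2 (adjusted p = 0.0716 and 0.0775 in limma). Others of this list were near 0, such as Zfp148 (-0.04), Zfp219 (0.04) and Zfp407 (0.03), which did not pass.

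Of 6 measured members known from stem cells, 1 fell and 5 did not pass, and all 6 had a log2 change below 0. The fall was that of Zfp532, already counted among the genes of the nervous system. Zfp281, a transcriptional repressor of embryonic stem cells, had 2885 and 2865 in double knockout brains, against 3612 and 3403 in control brains. The groups did not overlap, and the log2 change of -0.28 ± 0.09 just missed the threshold (limma adjusted p = 0.0501), while its other, dimmer probe set fell (-0.38, limma adjusted p = 0.0433). Zfp207, a protein of the mitotic spindle, had a log2 change of -0.05 at its brightest probe set, and of its 5 others 1 fell (-0.40, limma adjusted p = 0.0416).

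Of 8 measured members with roles in imprinting or in silencing retroelements, 2 fell (Zfp90 and Zfp708) and 6 did not pass. Zfp445, which protects imprinted methylation, was the brightest member, with 10864 and 10823 in double knockout brains, against 11549 and 12134 in control brains. Both double knockout arrays were lower, by a log2 change of -0.13 ± 0.07 (limma adjusted p = 0.215). Zfp568, a repressor of a placental Igf2 transcript, had a log2 change of -0.24, and Zfp809, a silencer of murine leukaemia virus, of -0.09. Zfp57, the imprinting factor left out by name, fell by 1.98 on the log2 scale, and Zfp503 by 0.80.

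Among 8 members that act on RNA or the ribosome, none passed the test in limma in either direction (2 were lower at an unadjusted p under 0.05), and their log2 changes ran from -0.26 (Zfp638) to 0.08 (Zfp106). Among 8 with a SCAN domain, a dimerisation domain, none passed in limma either (1 lower and 1 higher at an unadjusted p under 0.05), with changes from -0.33 (Zfp397) to 0.28 (Zfp110, an interactor of the neurotrophin receptor p75NTR). Of 7 in a list of signalling, ubiquitin or transport proteins, 1 fell (Zfp462, already counted among the genes of the nervous system). In these 3 lists the medians were -0.02, -0.08 and -0.14. Of the 5 brightest members, Zfp266, a KRAB gene, fell, with 5645 and 6709 in double knockout brains, against 9202 and 10334 in control brains (log2 change -0.66 ± 0.10, limma adjusted p = 0.00122). Zfp871 had 6828 and 6770 in double knockout brains, against 6694 and 6541 in control brains, a log2 change of 0.04.

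Most of the proteins through which KRAB zinc finger proteins act did not pass the test, at about the share of all genes. Those that passed changed in both directions, as did all genes tested. Of 35 measured cofactors, 6 fell (17.1%), 3 rose (8.57%) and 26 did not pass. Of all genes tested, 11.0% fell, 16.3% rose and 72.6% did not pass. The cofactors had a median log2 change of -0.05. Trim28, the scaffold that KRAB domains bind, had signals of 12942 and 11383 in double knockout brains, against 11758 and 12288 in control brains. Its groups overlapped, and the log2 change was 0.01 ± 0.08 (limma adjusted p = 0.921). Setdb1, the methyltransferase recruited by Trim28, had 2055 and 2157 in double knockout brains, against 2265 and 2377 in control brains (log2 change -0.14 ± 0.10, limma adjusted p = 0.361).

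Cofactors that fell were Morc2a (-0.63) and Resf1 (-0.57), both of retroelement silencing, Smarcad1 (-0.56), a chromatin remodeller, Ehmt1 (-0.51), a histone methyltransferase, Hdac2 (-0.44), a deacetylase, and Cbx1 (-0.29), an HP1 protein. Those that rose were Hdac1 (0.59), the other deacetylase of the same complex, Uhrf1 (0.50), a partner of Dnmt1, and Rbbp7 (0.34), a histone-binding subunit. Hdac1 had 4741 and 5551 in double knockout brains, against 3357 and 3442 in control brains, while Hdac2 had 11028 and 11415 in double knockout brains, against 14686 and 15864 in control brains. The 2 deacetylases thus moved in opposite directions, each with no overlap between genotypes. Without double knockout 2, Uhrf1 and Rbbp7 lost their calls, and Resf1 did without double knockout 1. Rbbp7 also lost its call without control 1, and Cbx1 lost its call without control 1, control 2 or double knockout 1.

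**Figure D4:**
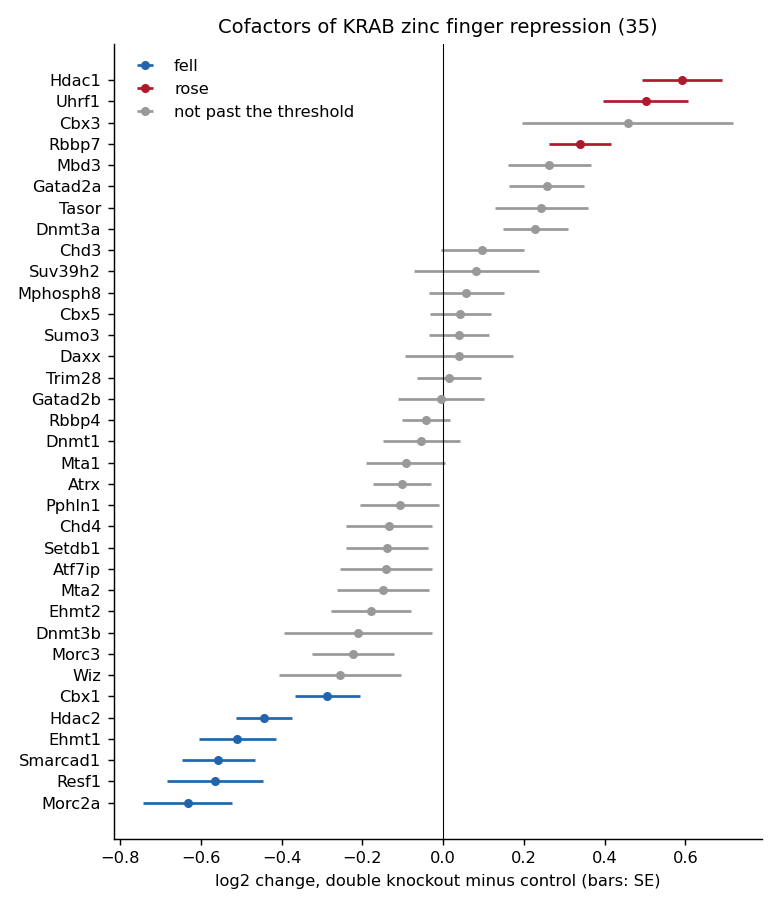
Each row is 1 of the 35 measured cofactors, ordered by its log2 change, double knockout minus control, on the x axis, and bars are the SE of that change. Genes that fell (blue) lie at the bottom, those that rose (red) lie at the top, and Trim28 lies near 0. The largest fall is that of Morc2a (-0.63) and the largest rise that of Hdac1 (0.59).

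Zfp genes often resemble each other, so the reading of each gene was compared between its probe sets. Of 110 members with several tested probe sets, none had 1 that rose and 1 that fell. Few probe sets rose, so such a conflict could seldom arise. Of the members that did not pass, 8 had another probe set that fell and 2 another that rose. These 2 were Zfp945 (-0.30 at its brightest, 1.04 at another, limma adjusted p = 0.00215) and Zfp800 (-0.15 and 0.54). Of 3 risen members with another tested probe set, 0 had another that rose, though all of these others were above 0. Of 36 fallen members with another tested probe set, 17 had another that fell, and in 32 every other probe set had a change below 0. Zfp266 fell at its brightest probe set and at 2 of its 3 others, and Zfp451 at all 3 of its others. The 170 probe sets that were not the brightest of their gene had a median log2 change of -0.24, and 32 of them fell, 2 rose and 136 did not pass. Of the 263 members, 22 were read at a probe set whose type marks probes that can match related transcripts. The other 241 had 68 that fell, 5 that rose and a median of -0.29. Signal shared between close paralogs cannot be split on this array, so values of members that lie beside each other may not be independent.

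Position along the chromosomes was examined next. The 262 members placed by RefSeq lay on 20 chromosomes, 68 of them on chromosome 7 and 36 on chromosome 17. A row was defined as members with at most 3 protein-coding places from one to the next. Of 115 members with no such neighbour, 27.8% fell, against 30.1% of 73 in rows of 2 or 3 and 21.6% of 74 in rows of 4 or more. The median log2 changes of these 3 classes were -0.22, -0.32 and -0.30. All 11 rows of 4 or more had a median below 0, and every member was below 0 in 28 of all 44 rows. These counts stand beside 82.1% of all members below 0, and 33 of the 44 rows held only 2 or 3 members. Whether neighbours changed together was not tested.

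Single rows named here were chosen after their values were seen. The longest, from Zfp677 to Zfp946 on chromosome 17, held 17 members, of which 3 fell and 14 were below 0 (median -0.24). In the row from Zfp84 to Zfp566 on chromosome 7 all 12 were below 0 (median -0.42) and 4 fell, namely Zfp30, Zfp383, Zfp566 and Zfp790. Zfp566 had 566.1 and 506.3 in double knockout brains, against 963.9 and 779.6 in control brains, a log2 change of -0.68. None of these 4 calls passed without double knockout 1. On chromosome 9, Zfp266, Zfp560 and Zfp846 formed a row in which all 3 fell (-0.66, -0.47 and -0.58), but of these only Zfp266 passed with each array left out in turn. On chromosome 17, Zfp811 (-1.32) and Zfp799 (-0.63) fell beside Zfp871, which did not pass (0.04).

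The promoters were then read for SOX core letters. RefSeq promoters, 250 bases before to 50 bases after the start, were matched to 218 of the 263 members, of which 59 fell, 6 rose and 153 did not pass. The letters ACAAAG or ACAATG, on either strand, stood in 27 of the 59 promoters of members that fell (45.8%), in 27 of the 153 of members that did not pass (17.6%) and in 0 of the 6 of members that rose. Of all 10062 promoters of genes tested, 18.9% held them, with 30.1% among genes that fell, 13.6% among genes that rose and 18.4% among the rest. Of all 27025 promoters in the table, 28.8% held them. The ones shown above for Zfp697, Zfp618, Zfp184 and Zfp868 are examples picked for a match, and of the 12 largest falls 10 had a promoter and 6 held the letters.

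Members with the letters had lower changes than members without. The median log2 change was -0.47 over 54 members with the letters, of which 27 fell, and -0.25 over 164 without, of which 32 fell (19.5%). For comparison, the same letters in another order (AAGACA or AGTAAC) stood in 13.6% of promoters of members that fell, 16.3% of those of members that did not pass and 16.1% of all genes tested. They stood in 0 of the 6 promoters of members that rose, as did the SOX core letters, so these few promoters do not tell the letters apart. Members with these reordered letters had a median of -0.26, and members without them -0.29. Within 100 bases before the start or after it, the SOX core letters stood in 28.8% of promoters of members that fell, 8.5% of those that did not pass, 16.3% of all genes that fell and 8.15% of all genes tested.

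**Figure D5:**
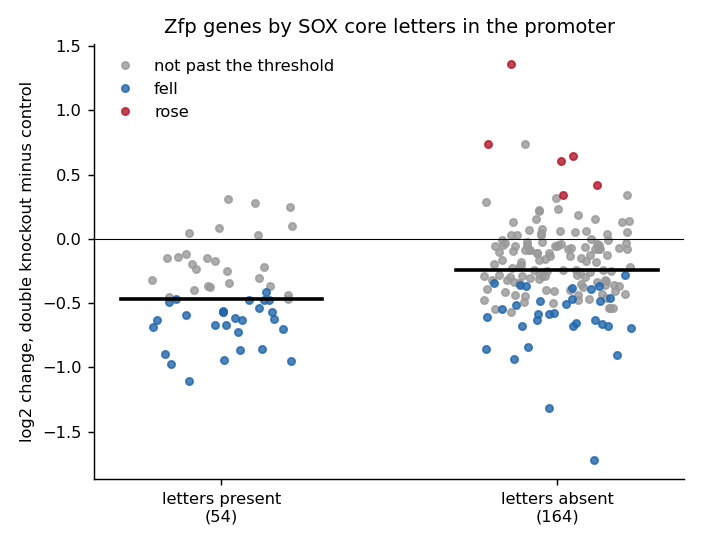
Each point is a numbered Zfp gene with a RefSeq promoter, placed by whether the promoter holds the SOX core letters (54 genes) or not (164 genes), and the y axis is the log2 change, double knockout minus control. Black lines are medians, -0.47 with the letters and -0.25 without, and points are spread sideways at random. None of the 6 genes that rose (red) holds the letters, and none of them holds the reordered letters either.

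The difference was not the same at every base composition. With less than 50% G and C in the promoter, 1 of 8 members that fell held the letters (12.5%), against 6 of 31 that did not pass (19.4%). From 50% to 60% the shares were 17 of 36 (47.2%) and 14 of 77 (18.2%), and at 60% or more 9 of 15 and 7 of 45 (15.6%). The median G and C content was 55.7% for members that fell and 55.3% for members that did not pass, while it was 61.3% for all genes tested. When the calls were taken under each other setting of the test, an alternative chosen after seeing the data, the share with the letters was 39.7% to 58.3% of members that fell and 15.2% to 21.2% of members that did not pass. A match of these letters is a description of the sequence, and binding by Sox4 or Sox11 was not measured.

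The ETS letters CCGGAAGT, counted in the same windows on both strands, stood in 11.9% of the members' promoters and in 8.14% of those of all genes tested. Of the 6 promoters of members that rose, 0 held them. Members with these letters had a median log2 change of -0.33, against -0.28 for members without them.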

How the data were processed

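Expression was measured in whole brains at E14.5 on 4 arrays of 1 colour, with groups and replicate numbers from the sample titles. Total RNA was amplified from the 3′ end and labelled with biotin, per the labels' protocols. The authors deposited linear intensities, for which the submitters' processing notes name MAS5 5.0. With 2% trimmed at both ends, every array had a mean of 1000, so a shift of most transcripts in 1 group would be removed before deposit. Precision is limited by the number of arrays, and a low signal was not called absent.

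The table held 45101 probe sets, 64 of them array controls, which were left out. Of the others, 34945 had 1 gene symbol in the platform annotation, 932 several and 9160 none, and only those with 1 symbol were named. Signals were taken as log2(signal + 16). Probe sets with a mean log2 value above the 40th percentile (7.41, a signal of 154.6) were kept, which left 27022. limma 3.58.1 under R 4.3.3 (lmFit, eBayes with a variance trend, 2 residual and 8.33 prior degrees of freedom, Benjamini-Hochberg over all probe sets kept) compared double knockout with control at an adjusted p under 0.05. Each gene was read at its brightest probe set, which gave 12489 genes. The pseudocount understates changes of dim genes. Values after ± are SEs of the log2 change.

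The members, role lists, cofactors and markers were chosen with earlier results of these data known, so their counts are descriptions beside the background and no test over a list was made. Named genes were the 12 largest falls and all 6 rises among members past the threshold with no overlap between groups. Also named were the 5 brightest members, those nearest the signal minimum, members of the role lists, and Trim28, Setdb1 and cofactors past the threshold. Other genes in counts of 5 or fewer, and members of single rows, were named after their values were seen. All 263 members were matched to RefSeq by gene ID, for names, neighbours and promoters, and no build is named for the array's own annotation. Alternatives were the normalization, pseudocount, filter, variance model, threshold, signal minimum, probe set choice, replicate block and each array left out. Same-numbered arrays did not deviate together (r = 0.00 across probe sets), so the main fit has no block.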

Additional observations from a re-analysis of the deposited data

How the results depend on the processing

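The median log2 change of the numbered Zfp genes stayed below 0 under every setting tried, and no result reversed. It was -0.28 as reported, -0.24 with median centring, -0.25 when a gene's probe sets were averaged, and -0.28 to -0.23 with 1 array left out. Counts of calls moved more. Against 70 that fell and 6 that rose, 43 fell without the signal filter, and 32 fell and 2 rose without the variance trend, where 5.24% of all genes fell. With 1 array left out, 32 to 55 fell and 2 to 5 rose, and the lone array of a group was taken to vary like the pair. Leaving out double knockout 1 gave the lowest counts. Of the 70, 23 passed with each array left out in turn, and of the 6, 1 did. Of the cofactors, 1 rose and 3 fell without the variance trend, where 7.69% and 5.24% of all genes did. At an adjusted p under 0.1, 6 cofactors rose, where 21.6% of all genes did. The causes were not tested. With the replicate number as a block, 75 fell and 6 rose, where 11.8% and 17.5% of all genes did. The numbers do not pair the arrays, and their deviations correlated at r = 0.00. Of 1174 single values of 79 named genes under other settings, 1105 kept their side of the threshold, 47 lost it and 22 gained it, with no change of sign among called values. Dim members have the widest errors, and with 2 arrays per group the smallest fall that passed was a log2 change of -0.28.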

Other observations

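Other genes named for zinc fingers were grouped by name after the data were seen and read at the same signal minimum. The counts of every group, here and in the next paragraph, stand beside 11.0% that fell and 16.3% that rose among all genes tested. Of 34 Zbtb genes, which join zinc fingers to a BTB domain, 9 fell and 3 rose, with a median log2 change of -0.12. Zbtb46 had signals of 548.9 and 423.7 in double knockout brains, against 1159 and 1469 in control brains (log2 change -1.41), and Zbtb4 rose (0.66). Of 18 Zkscan and Zscan genes, 4 fell and 0 rose in limma (0 were higher also at an unadjusted p under 0.05), with a median of -0.09, the largest fall being that of Zkscan1 (-0.71). Of 12 Zfhx, Zeb, Zic and Gli genes, 5 fell and 2 rose (median -0.16), with Zfhx3 at 5996 and 5625 in double knockout brains, against 13463 and 13656 in control brains (log2 change -1.22).

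Klf and Sp factors, which share a C2H2 zinc finger triplet, were split, with 4 of 19 that fell, 4 that rose and a median of 0.15. Klf9, a factor induced by thyroid hormone and glucocorticoids, had 2228 and 1887 in double knockout brains, against 600.8 and 686.7 in control brains (log2 change 1.65). Sp5 fell by 1.19 on the log2 scale. Among 21 Zdhhc genes, which use zinc in palmitoyltransferases and do not bind DNA, 2 rose and 1 fell (median 0.13), and among 11 Zc3h genes, 1 rose and 2 fell (median -0.15). The 25 Zfp genes with a letter in the name had a median of -0.26, close to that of the numbered genes, with 5 that fell and 2 that rose. Those that rose were Zfp36l1 (0.29) and Zfp36l2 (0.51), which bind AU-rich messenger RNA. No test of a difference between these groups was made.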
